A study of Mus musculus with 3 samples.

Results

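The 37 genes described here make and supply the machinery that copies DNA in S phase. They were members of a list of symbols, each matched to the alias column of the deposited gene table, and all 37 were found among 26851 named genes. For 4 symbols more than 1 row matched, and the row with the highest mean was to be kept. For Rpa1 that row was the cluster of Polr1a, an RNA polymerase I subunit gene that lists the same alias, so the cluster at the position of Rpa1 itself was used in its place. The Polr1a row gave 1637 reads (control), 2867 (Ptbp1 siRNA) and 2902 (both siRNAs), and it is not among the 37 members counted here.

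The RNA came from mouse CAD cells, a catecholaminergic neuroblastoma line, in 3 groups: control siRNAs, a knockdown of Ptbp1 alone, and a knockdown aimed at Ptbp1 together with Ptbp2. Ptbp1 and Ptbp2 encode paralogous polypyrimidine tract binding proteins that regulate splicing. All siRNAs were of the ON-TARGETplus type, cells were taken 72 h after transfection, and each group had 1 library of poly(A)+ RNA. The series is titled for the control of neuronal mRNA levels by intron retention.

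Replication starts at origins to which the origin recognition complex, Cdc6 and Cdt1 load a ring of the 6 proteins Mcm2 to Mcm7. Mcm10, Cdc45 and the GINS complex turn that ring into a moving helicase. Primase with polymerase alpha starts each strand, the clamp Pcna and its loader (the RFC subunits) hold polymerases delta and epsilon on DNA, the RPA proteins cover single strands, and Fen1 and Lig1 join the lagging strand. Ribonucleotide reductase (Rrm1, Rrm2), Tyms and Tk1 supply deoxynucleotides. Many of these genes are known targets of the E2F transcription factors, which are held back by the pocket proteins Rb1, Rbl1 and Rbl2 and are active as cells enter S phase.

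Because E2F control is what these genes are best known to share, their promoters are shown first. RefSeq promoter windows (build GRCm38.p6, 250 bases before to 50 after an annotated start) were at hand for 30 of the 37 genes. Mcm4, Prim2, Pole, Rfc2, Gins1, Gins2 and Gins4 had none in the table used. The E2F word was searched on both strands in its 4 spellings TTTCCCGC, TTTCGCGC, TTTGCCGC and TTTGGCGC. It was found in 13 of the 30 genes (43.3%), against 704 of all 27025 genes in the promoter table (2.6%). These 27025 genes were not matched to the members for level or base composition. The 13 were Mcm3, Mcm5, Mcm6, Mcm7, Cdc6, Cdt1, Gins3, Pola1, Pold1, Pold3, Pole2, Rfc3 and Lig1. The word CCAAT was in 60% of the members' promoters and 41.1% of all, and the CHR word TTTGAA, known from mitotic genes, in 13.3% and 20.2%. In the members 1 match of these words overlapped an E2F match. A match only describes the letters in the window and does not show that a factor binds there. Other spellings and bases outside the window were not searched, so lack of a match does not show lack of an E2F site.

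The stretches below run from 120 bases before to 30 after the annotated start, with E2F words in capitals. Mcm3, Mcm6 and Mcm7 are shown as helicase genes with the word that were higher in both knockdown libraries, and Rfc3 as a clamp loader gene with closely spaced words on opposite strands. Pold3 holds the word without having been higher by 1.5-fold, and Mcm2 and Pcna were higher without holding it.
Mcm3 (chr1:20820283-20820432, minus strand): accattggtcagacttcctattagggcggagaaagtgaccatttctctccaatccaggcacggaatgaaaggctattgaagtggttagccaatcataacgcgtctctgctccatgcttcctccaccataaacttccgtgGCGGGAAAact
Mcm6 (chr1:128359676-128359825, minus strand): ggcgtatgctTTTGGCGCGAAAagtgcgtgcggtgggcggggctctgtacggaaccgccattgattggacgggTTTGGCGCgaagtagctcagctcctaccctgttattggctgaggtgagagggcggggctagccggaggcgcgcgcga
Mcm7 (chr5:138171854-138172003, minus strand): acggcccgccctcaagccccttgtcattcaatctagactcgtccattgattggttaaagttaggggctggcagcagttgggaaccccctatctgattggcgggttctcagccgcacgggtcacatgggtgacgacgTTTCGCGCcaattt
Rfc3 (chr5:151651179-151651328, minus strand): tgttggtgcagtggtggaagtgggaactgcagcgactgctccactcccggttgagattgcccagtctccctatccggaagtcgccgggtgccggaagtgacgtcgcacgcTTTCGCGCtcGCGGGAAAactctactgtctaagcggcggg
Pold3 (chr7:100121473-100121622, minus strand): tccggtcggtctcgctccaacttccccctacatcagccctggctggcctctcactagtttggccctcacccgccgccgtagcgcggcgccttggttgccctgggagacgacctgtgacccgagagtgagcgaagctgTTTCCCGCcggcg
Mcm2 (chr6:88898751-88898900, minus strand): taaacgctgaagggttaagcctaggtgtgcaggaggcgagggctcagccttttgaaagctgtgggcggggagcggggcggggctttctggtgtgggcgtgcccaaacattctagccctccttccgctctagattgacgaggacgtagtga
Pcna (chr2:132253151-132253300, minus strand): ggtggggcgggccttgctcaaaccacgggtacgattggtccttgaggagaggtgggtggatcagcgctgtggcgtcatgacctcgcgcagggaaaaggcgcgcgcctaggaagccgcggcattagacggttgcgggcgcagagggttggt

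The stretches leave out the second match of Mcm3, at position 39, and a match of Mcm7 that begins 165 bases before its start. In Mcm6 the first capital run holds overlapping matches that begin 110 and 106 bases before the start. Mcm5 has overlapping matches beginning 153 and 149 bases before its start, outside such a stretch. Matches of Cdt1 and Pold1 begin at positions 33 and 40 after the start, and that of Cdc6 138 bases before it.

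**Figure D1:**
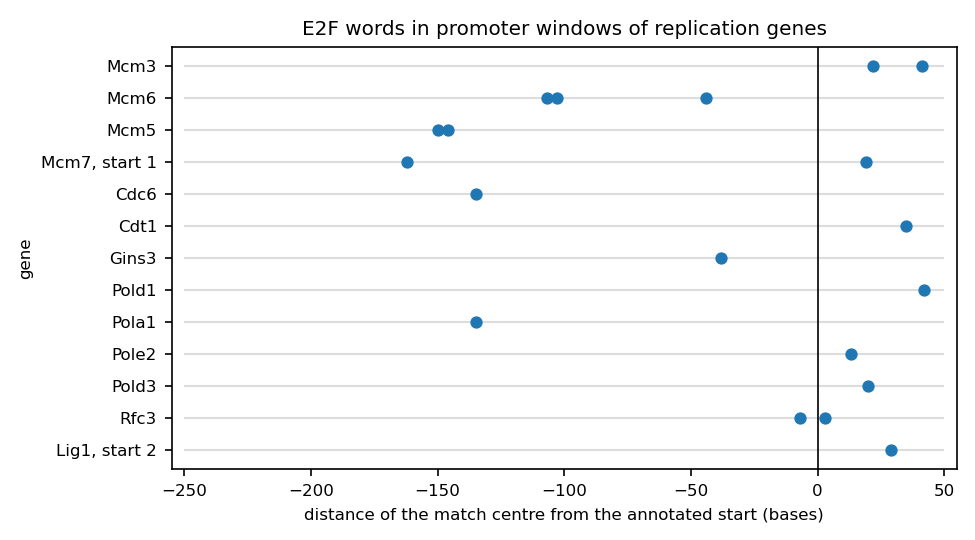
Distance in bases of the centre of each E2F word match (point) from the annotated start, in the 13 replication genes with a match; grey lines mark the window searched, from 250 bases before to 50 after. The matches lie on both sides of the start, from Mcm7 at -162 to Pold1 at 42.

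The libraries held 16011466, 16899549 and 14242495 reads in gene clusters, listed as control, Ptbp1 siRNA and both siRNAs here and in all later sets of values. Levels are given as reads, as CPM (reads over the scaled library size, 1 CPM standing for 15.3, 17 and 14.3 reads) within a gene, and as RPKM (per length, the authors' values) between genes. With 1 library per group no difference has a replicate check and no p-value is given. Folds are CPM ratios with 95% counting intervals, which cover no variation between cultures and may be too narrow, as amplified reads are not independent molecules. A pair of folds after a gene's reads sets first the Ptbp1 siRNA library, then the library with both siRNAs, against the control. Whether the values count reads or pairs was not stated. Ptbp1 itself gave 7191, 1486 and 1516 reads, and Ptbp2 had 784, 3044 and 633, so Ptbp1 was 5.38-fold (5.09 to 5.7) and 4.44-fold lower (4.2 to 4.69). Of the exon bases of Ptbp1, 16.3% are shared with BC005764, E130317F20Rik and Gm17134, which adds to the uncertainty of its folds. Ptbp2 was 3.49-fold higher after Ptbp1 siRNA (3.23 to 3.78) and 1.16-fold below the control after both (1.04 to 1.29). All 10 markers of the CAD line were present, from 27.3 to 1640 CPM, and their summed level was 4080, 3500 and 4090 CPM. Single markers differed between libraries: Th, which makes the dopamine precursor, was at 93.4, 93.1 and 79.3 CPM, Dbh, which makes noradrenaline, at 141, 279 and 327 CPM, Phox2a, a factor of noradrenergic cells, at 99.7, 117 and 206 CPM, and Ddc, which makes dopamine, at 44.7, 27.3 and 37.2 CPM. Of markers of other cells, 2 of 6 for fibroblasts, 0 of 4 for astrocytes, 1 of 4 for oligodendrocytes and Schwann cells and 2 of 5 for blood and endothelium reached 1 CPM in any library. Col1a2, Slc1a3 and Hba-a1 were at 0 in every library. Pecam1, an endothelial gene, was at 21.9, 15.3 and 11.3 CPM and Col1a1, a collagen gene, at 7.99, 5.18 and 3.36 CPM. The summed blood and endothelial level was 22.7, 17.1 and 12 CPM, and that of fibroblasts 9.63, 6.77 and 5.32 CPM. Their part in the results was not tested. In bulk RNA, more cells in S phase and more RNA of these genes per cell cannot be told apart.

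The replication genes together took a larger share of reads in both knockdown libraries. They held 0.4271% of the gene reads in the control library (exact binomial 95% interval 0.4239 to 0.4304), 0.6338% after Ptbp1 siRNA (0.63 to 0.6377) and 0.6223% after both siRNAs (0.6182 to 0.6264). The control library had the lowest CPM of the 3 for 32 of the 37 members (86.5%), against 38% of all genes tested in any pair. The median level was 28 RPKM in the control library, 38.5 and 38.7 in the others. Per length Pcna was the highest member in all 3 libraries, at 116, 197 and 204 RPKM. The lowest was Mcm10 in the control, at 3.43 RPKM, and Pola1 in the knockdown libraries, at 4.54 and 4.5 RPKM. All 37 members were above 1 CPM in every library, so the filter on low values removed none.

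**Figure D2:**
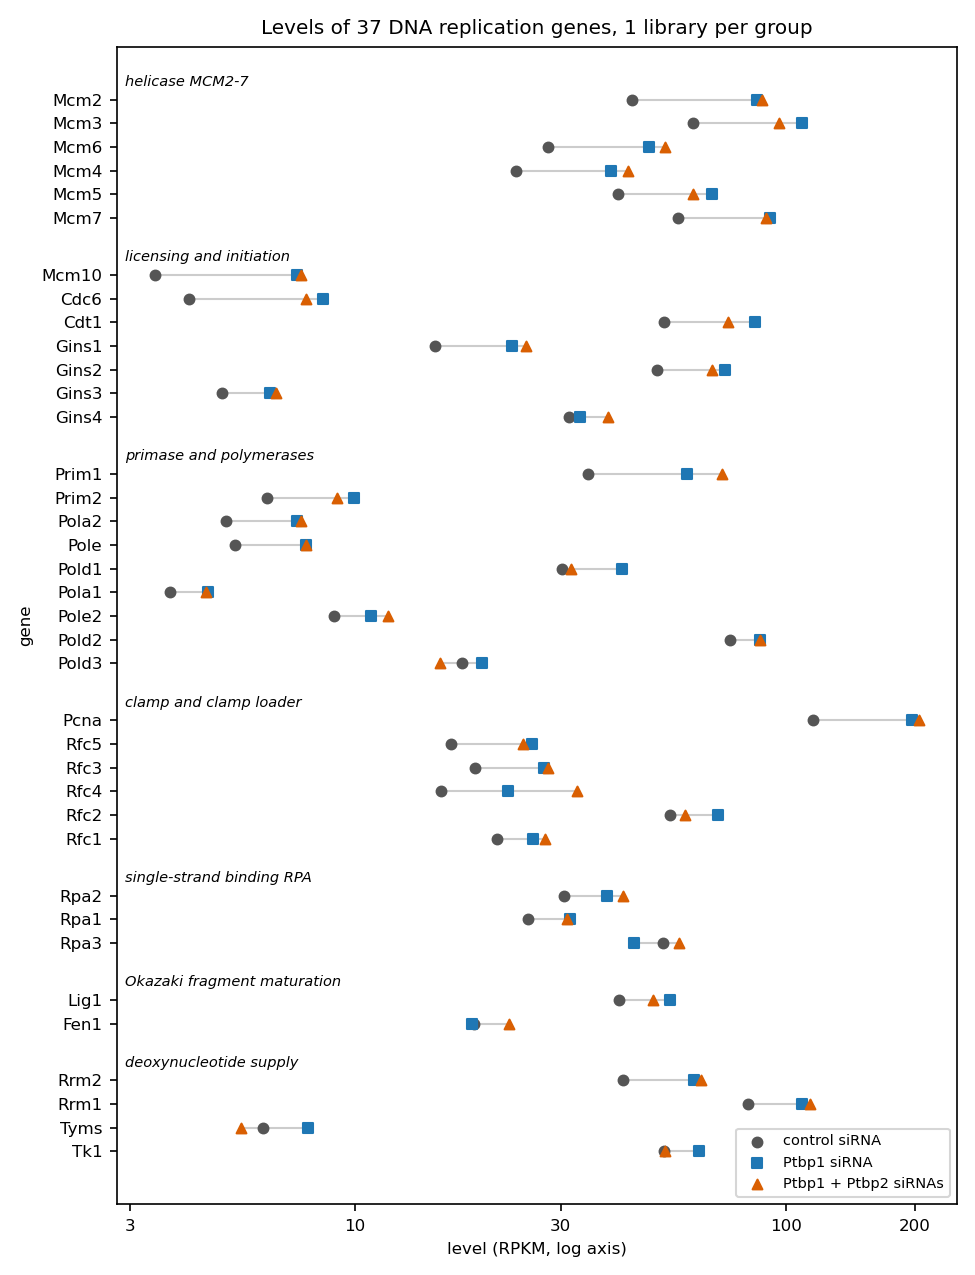
Level of each replication gene in RPKM (log axis) in the control (circles), Ptbp1 siRNA (squares) and Ptbp1 plus Ptbp2 siRNA library (triangles), grouped by role. Circles lie left of the other symbols for most genes, and to the right of the squares for Rpa3 and Fen1.

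A gene was called by size in a pair when its difference in log2(CPM + 1) reached the log2 of 1.5 (about 0.58) or 1 (2-fold), its interval excluded 1 and it reached 1 CPM in the higher library. After Ptbp1 siRNA 12 of 37 members were at least 1.5-fold higher than in the control, against 3.00% of the 13285 genes tested, and none was 1.5-fold lower, against 3.48%. By the 2-fold size 1 member was higher, against 0.279% of genes, and 0 lower, against 0.459%. The median difference was 0.45, beside -0.01 over all genes tested, and 35 members were above 0 (94.6%, against 48.4% of genes). Among the 32 members that share under 10% of their exon bases with another gene, 11 were 1.5-fold higher.

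After both siRNAs 11 of 37 members were at least 1.5-fold higher than in the control, against 7.27% of the 13305 genes tested. None was 1.5-fold lower, against 10%. Again 1 was 2-fold higher, against 1.07%, and 0 were 2-fold lower, against 2.71%. The median was 0.42, beside -0.01 over all genes, and 34 members were above 0 (91.9%, against 48.7% of genes). Among the 32 with under 10% of exon bases shared, 9 were 1.5-fold higher. These comparisons share the control library, so they do not support each other. When libraries were scaled by their totals alone, higher calls made up 61.4% of all 1.5-fold calls after Ptbp1 siRNA, against 46.3%, and 53.5% after both siRNAs, against 42%.

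Between the knockdown libraries the members lay on both sides of 0. None differed by 1.5-fold, against 1.84% of 13339 genes higher and 3.59% lower with both siRNAs. None differed by 2-fold, against 0.105% and 0.345%. The median was 0.03, beside 0.00 over all genes. Of the members 20 were above 0 (54.1%, against 49.2% of all genes tested) and 17 below. For 18 of the 37 members the interval of the ratio held 1, as it did for 7372 of the 13339 genes. A difference within these intervals was not detectable at this depth, which does not show that the levels were the same.

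**Figure D3:**
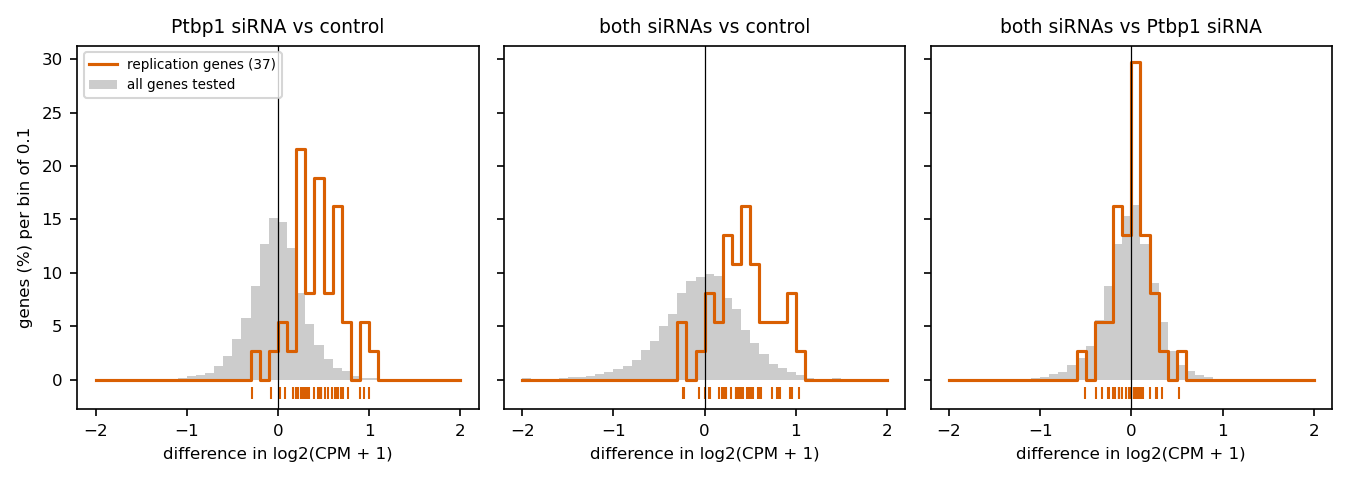
Share of genes (%) per bin of 0.1 of the difference in log2(CPM + 1), for all genes tested (grey bars, outermost bins holding values beyond the axis) and the 37 replication genes (orange line, with a tick per gene), in the 3 pairs. In the pairs with the control 35 and 34 members lie to the right of 0, with medians of 0.45 and 0.42. Between the knockdown libraries the members lie around 0, with a median of 0.03.

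All 6 genes of the helicase ring were above the control in either knockdown library, against 48.4% and 48.7% of all genes tested. The summed share of reads of the 6 was 0.119%, 0.2081% and 0.2048%, and their median differences from the control were 0.68 and 0.70. Mcm2 (mm9 chromosome 6, 88833470 to 88848692) gave 3488, 7247 and 6264 reads, 1.87-fold (1.79 to 1.95) and 1.92-fold higher (1.84 to 2). Mcm3 (chromosome 1, 20793464 to 20810295) gave 3703, 7036 and 5239 reads, 1.71-fold (1.64 to 1.78) and 1.51-fold higher (1.45 to 1.58). Both genes were low in the control library alone.

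Mcm6 (chromosome 1, 130228169 to 130256234) gave 2954, 5385 and 4936 reads, 1.64-fold (1.57 to 1.71) and 1.79-fold higher (1.71 to 1.87). Mcm4 (chromosome 16, 15624197 to 15637450) gave 1907, 3356 and 3099 reads, 1.58-fold (1.5 to 1.67) and 1.74-fold higher (1.64 to 1.84). In these 2 genes CPM was highest with both siRNAs, 1.09-fold (1.05 to 1.13) and 1.1-fold (1.05 to 1.15) above Ptbp1 siRNA alone. Mcm5 (chromosome 8, 77633428 to 77652339) gave 3453, 6055 and 4610 reads, 1.58-fold (1.51 to 1.64) and 1.43-fold higher (1.37 to 1.49). Mcm7 (chromosome 5, 138605818 to 138613091) gave 3254, 5650 and 4669 reads, 1.56-fold (1.49 to 1.63) and 1.53-fold higher (1.47 to 1.6). For Mcm5 the difference after both siRNAs, 0.51, was the 1 helicase value short of the 1.5-fold size.

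Although the 6 proteins work in 1 ring, their mRNA levels per length differed, from 23.6 RPKM for Mcm4 to 60.9 RPKM for Mcm3 in the control library, a span of 2.57-fold. The span was 2.78-fold after Ptbp1 siRNA and 2.24-fold after both siRNAs, with the same genes at its ends. Of the exon bases of Mcm7, 12.6% are shared with Cops6, Ap4m1 and microRNA genes. A near-identical copy on chromosome 16 (97.5% identity over 80.2% of its transcript) adds to the uncertainty of its value.

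Of the 7 genes that load and start the helicase, Mcm10, Cdc6 and Cdt1 were 1.5-fold higher after Ptbp1 siRNA, and Mcm10, Cdc6 and Gins1 after both siRNAs. Over all genes tested 3.00% and 7.27% were higher by this size in these pairs. Mcm10 (chromosome 2, 4911795 to 4933782), which helps activate the loaded helicase, gave 461, 1044 and 895 reads, or 30.2, 61.5 and 62.7 CPM. At 2.04-fold (1.82 to 2.28) and 2.08-fold higher (1.85 to 2.33) it was the single member called at the 2-fold size, and its intervals reach below 2 in both pairs. Cdc6 (chromosome 11, 98769204 to 98785257), a loader of the ring, gave 490, 1064 and 819 reads, 1.95-fold (1.75 to 2.18) and 1.79-fold higher (1.6 to 2).

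Cdt1 (chromosome 8, 125091916 to 125097031), the other loader, gave 4343, 7474 and 5456 reads. It was 1.55-fold higher after Ptbp1 siRNA (1.49 to 1.61) and 1.34-fold higher after both (1.29 to 1.4), and with both siRNAs 1.15-fold below the Ptbp1 siRNA library (1.11 to 1.19). So the loader genes had their highest CPM in the Ptbp1 siRNA library, although for Cdc6 the interval between the knockdown libraries held 1 (1.09-fold lower, 0.997 to 1.2). The 4 GINS genes, whose products form 1 complex, differed among themselves. Gins1 gave 426, 681 and 618 reads, 1.44-fold (1.27 to 1.63) and 1.55-fold higher (1.37 to 1.76).

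Gins4 gave 1016, 1145 and 1118 reads, 1.01-fold (0.93 to 1.1) and 1.18-fold higher (1.08 to 1.28). Gins3 was at 0.29 and 0.34 on the log2 scale, from 285 reads in the control. Gins2 was at 0.45 and 0.35, but it shares 67.3% of exon bases with Gse1, and reads of the 2 genes cannot be told apart there.

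Among the 9 primase and polymerase genes the small primase subunit gene had the largest difference from the control in either pair. Prim1 (chromosome 10, 127452272 to 127467087), which makes the RNA primer, gave 1291, 2319 and 2347 reads, or 84.6, 137 and 164 CPM. It was 1.62-fold (1.51 to 1.73) and 1.94-fold higher (1.81 to 2.08) than in the control, and 1.2-fold higher with both siRNAs than with Ptbp1 siRNA (1.14 to 1.27). Prim2, its partner subunit, gave 533, 898 and 690 reads, 1.51-fold (1.36 to 1.69) and 1.38-fold higher (1.23 to 1.55). The primase genes thus took different orders in the knockdown libraries, with the interval for Prim2 holding 1 (0.826 to 1.01).

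The polymerase alpha genes Pola1, the catalytic subunit, and Pola2, the accessory one, were 1.17-fold (1.06 to 1.29) and 1.4-fold higher (1.28 to 1.53) after Ptbp1 siRNA. After both siRNAs they were 1.16-fold (1.05 to 1.28) and 1.42-fold higher (1.3 to 1.56). Pole, the catalytic subunit of the leading strand polymerase epsilon, gave 1159, 1794 and 1509 reads, 1.39-fold higher in either library (1.29 to 1.5 in both). Its partner Pole2, with 374 reads in the control, was at 0.22 and 0.34.

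Polymerase delta copies the lagging strand, and after both siRNAs its 3 subunit genes in the list lay between -0.24 and 0.16. Pold1, its catalytic subunit (chromosome 7, 51788120 to 51804187), gave 2494, 3657 and 2337 reads, or 163, 215 and 164 CPM. It was 1.32-fold higher after Ptbp1 siRNA (1.25 to 1.39) and at the control level after both siRNAs (ratio 1, 0.946 to 1.06). Pold3, an accessory subunit (chromosome 7, 107230624 to 107270011), gave 1288, 1518 and 1019 reads, 1.06-fold higher after Ptbp1 siRNA (0.983 to 1.14) and 1.18-fold lower after both (1.09 to 1.29). Pold2, another accessory subunit, was 1.12-fold higher in either library (1.06 to 1.18 in both).

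Pcna, the sliding clamp (chromosome 2, 132075023 to 132078917), gave 3547, 6374 and 5542 reads. It was 1.62-fold (1.55 to 1.68) and 1.67-fold higher (1.6 to 1.74), and low in the control library alone. A copy on chromosome 19 (9357728 to 9358985) is 99.3% identical over 82.8% of its transcript, so part of these reads may belong to either place. Its loader genes Rfc1 to Rfc5 were above the control in both libraries, by between 0.05 and 0.96 on the log2 scale. Of all genes tested, 48.4% and 48.7% were above the control in these libraries.

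Rfc4 gave 522, 792 and 964 reads, or 34.2, 46.6 and 67.5 CPM, and was the loader gene with the largest difference between the knockdown libraries. It was 1.36-fold (1.22 to 1.53) and 1.97-fold higher (1.77 to 2.2) than in the control, and 1.45-fold higher with both siRNAs than with Ptbp1 siRNA alone (1.32 to 1.59). Of its exon bases, 12.6% are shared with Eif4a2. Rfc2 went the other way between the knockdown libraries, with 1980, 2713 and 1914 reads, 1.23-fold higher after Ptbp1 siRNA (1.16 to 1.31) and 1.03-fold after both (0.97 to 1.1). Rfc1, the large subunit, was at 0.20 and 0.29, Rfc3 at 0.46 and 0.49, and Rfc5, with 10.7% of exon bases shared with Wsb2, at 0.55 and 0.49.

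None of the single-strand binding and strand-joining genes reached the 1.5-fold size. In the pairs with the control 3.00% and 7.27% of all genes tested were higher by this size, and 3.48% and 10% lower. With so few genes, a count of none is near these shares. Rpa1 gave 1550, 2052 and 1704 reads, 1.19-fold (1.11 to 1.27) and 1.18-fold higher (1.1 to 1.26). Rpa2, the middle subunit, was 1.2-fold (1.12 to 1.28) and 1.3-fold higher (1.22 to 1.39). Rpa3, the small subunit (chromosome 6, 8205938 to 8209114), gave 763, 695 and 743 reads, 1.22-fold lower after Ptbp1 siRNA (1.1 to 1.36). It was the 1 member whose interval lay below the control in that pair.

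Lig1, the ligase that seals the lagging strand, gave 3286, 4577 and 3505 reads, 1.25-fold (1.2 to 1.31) and 1.14-fold higher (1.09 to 1.2). Fen1, the flap endonuclease, gave 1013, 1062 and 1091 reads and was at -0.08 and 0.20, but it shares 84.2% of exon bases with 1810006K21Rik and Gm10143. Its own level is therefore uncertain.

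Of the deoxynucleotide genes 4 of 4 were above the control after Ptbp1 siRNA, against 48.4% of all genes tested. After both siRNAs 2 of 4 were above it, against 48.7%, so that count was near the share of all genes. The ribonucleotide reductase genes, which make deoxynucleotides from ribonucleotides, stayed above the control. Rrm1 (chromosome 7, 109590382 to 109617106) gave 5236, 7369 and 6486 reads, 1.27-fold (1.22 to 1.31) and 1.32-fold higher (1.28 to 1.37), and Rrm2 gave 2140, 3314 and 2891 reads, 1.39-fold (1.32 to 1.47) and 1.44-fold higher (1.37 to 1.53). Tyms, which makes thymidylate (chromosome 5, 30385368 to 30400122), gave 480, 650 and 381 reads, or 31.4, 38.3 and 26.7 CPM. It was 1.22-fold higher after Ptbp1 siRNA (1.08 to 1.37) and 1.18-fold lower after both (1.03 to 1.35).

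Between the knockdown libraries Tyms was 1.44-fold lower with both siRNAs (1.26 to 1.63), the lowest value of the 37 members in that pair. Tk1, the thymidine kinase that salvages thymidine, gave 1601, 2054 and 1436 reads, 1.15-fold higher after Ptbp1 siRNA (1.08 to 1.23) and at -0.06 after both, a value that ran up to 0.01 under the other scalings. A copy on chromosome 8 is 96% identical over 83% of its transcript. Tyms, Tk1 and Pold3 were the members with their lowest CPM in the library with both siRNAs and their highest after Ptbp1 siRNA, an order that 10.5% of all genes had.

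**Figure D4:**
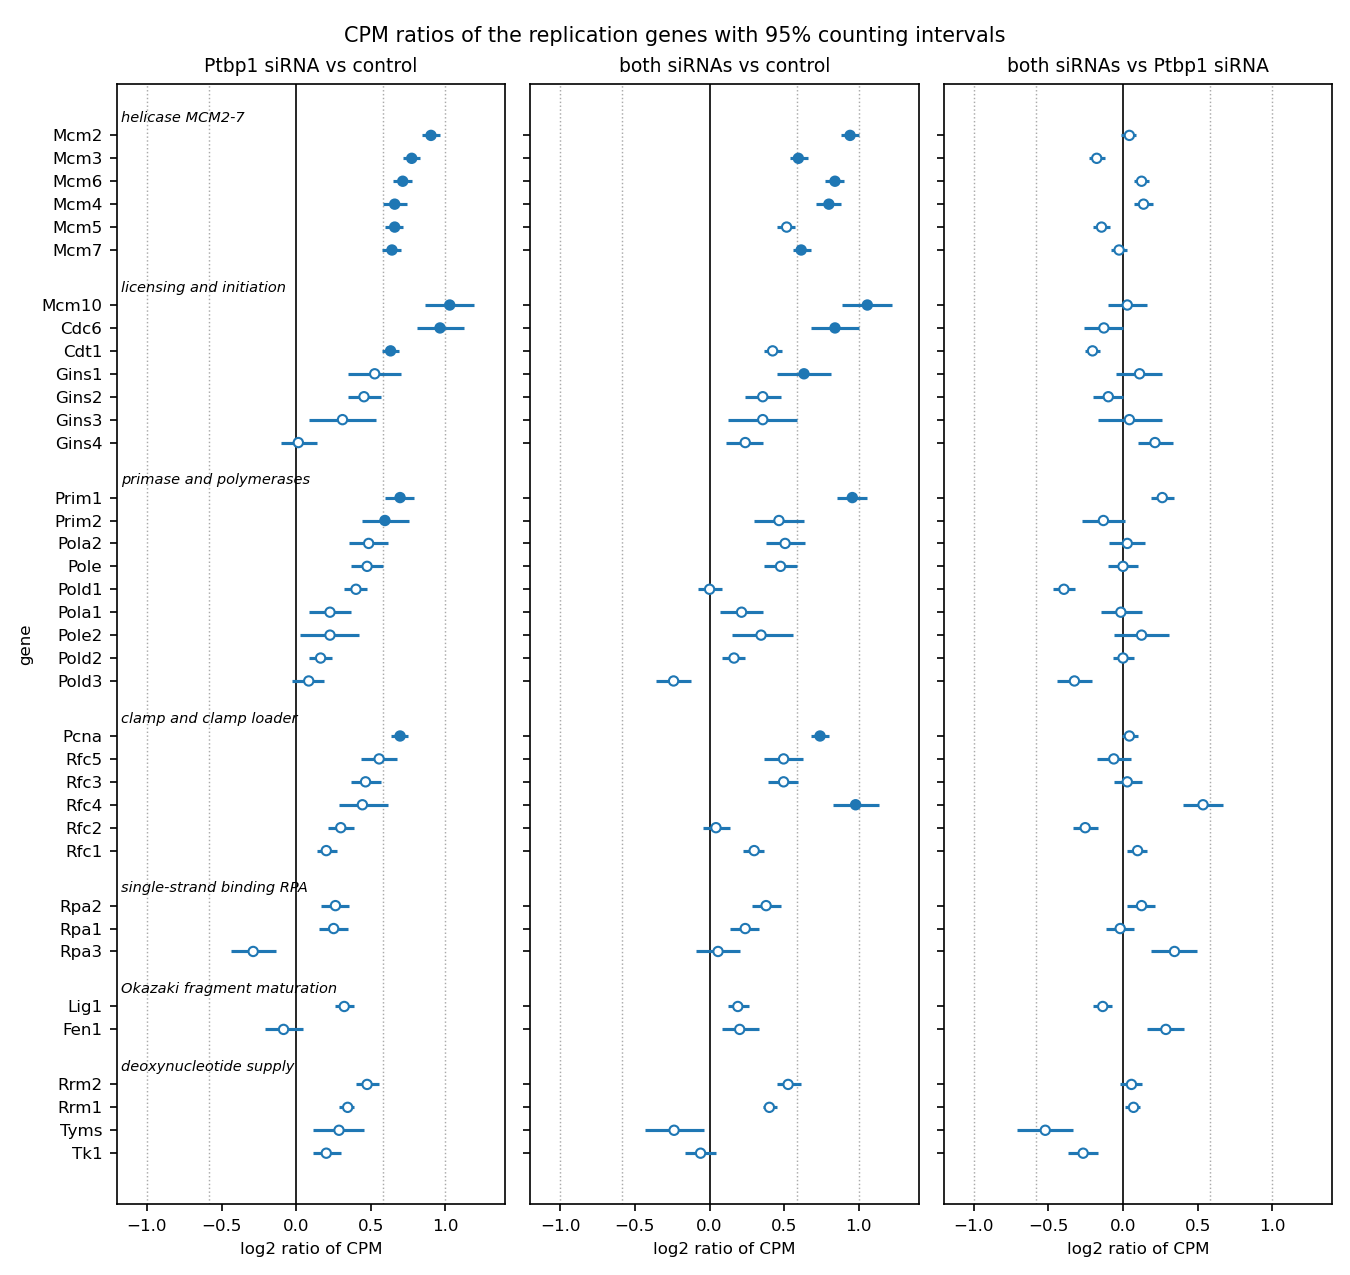
Log2 ratio of CPM for each replication gene with its 95% counting interval (bar), in the 3 pairs; filled points were at least 1.5-fold different, and dotted lines mark 1.5-fold and 2-fold. All helicase genes lie at or beyond 0.64 after Ptbp1 siRNA, and in the right panel Rfc4 (1.45-fold higher) and Tyms (1.44-fold lower) lie farthest from 0.

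Members higher by 1.5-fold were found with and without the E2F word, as searched in its 4 spellings within the window. Members that had no promoter window are in neither group below. Among them Mcm4 was 1.5-fold higher in either knockdown library, Prim2 after Ptbp1 siRNA and Gins1 after both siRNAs. The 13 with the word had a median of 0.46 after Ptbp1 siRNA, from 0.08 for Pold3 to 0.94 for Cdc6, and 6 of them were 1.5-fold higher. The 17 without it had a median of 0.34, from -0.28 for Rpa3 to 1.00 for Mcm10, and 4 of them, Mcm2, Mcm10, Prim1 and Pcna, were 1.5-fold higher. Over all genes tested 3.00% were higher by this size. After both siRNAs the medians were 0.42 and 0.40, with 4 and 5 genes higher, against 7.27% of all genes tested. The ranges overlap almost throughout, and the difference between these groups was not tested.

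Genes that act beside the members were read from lists of the same pathway. Of 19 origin recognition and firing partners in the table, all 19 were above the control in both knockdown libraries, with medians of 0.47 and 0.49. Over all genes tested 48.4% and 48.7% were above it. In each pair the interval lay above 1 for 17 of the 19 and held 1 for 2. After Ptbp1 siRNA 3 of the 19 were 1.5-fold higher, against 3.00% of all genes tested, and after both siRNAs 7, against 7.27%. None was lower, against 3.48% and 10%. Mcm8, a helicase relative that acts in repair, gave 513, 843 and 997 reads, 2.08-fold higher after both siRNAs (1.87 to 2.32). Orc2, an origin recognition subunit, gave 620, 943 and 1123 reads, 1.94-fold higher (1.75 to 2.14). Timeless and Tipin, whose products form a complex at the fork, were 1.87-fold (1.74 to 2.01) and 1.67-fold higher (1.52 to 1.83). Of the 17 partners with a promoter window 35.3% held the E2F word.

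The 14 other fork and polymerase genes went both ways, with medians of 0.13 and 0.11. After Ptbp1 siRNA 4 were 1.5-fold higher, against 3.00% of all genes, and 1 lower, against 3.48%. After both siRNAs 3 were 1.5-fold higher, against 7.27% of all genes, and 2 lower, against 10%. Pole4, a polymerase epsilon subunit, was 2.12-fold (1.84 to 2.45) and Exo1, an exonuclease of repair, 2.04-fold higher (1.88 to 2.22) after both siRNAs. Dscc1, of an alternative clamp loader, was at 0.95. Pold4, the smallest polymerase delta subunit, gave 238, 148 and 117 reads, 1.79-fold (1.45 to 2.21) and 1.9-fold lower (1.52 to 2.4). Like Pold3, it had an interval below the control after both siRNAs.

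Chromatin assembly and maintenance methylation genes, which act behind the fork, had medians of 0.37 and 0.42 over 11 genes. Of these 2 and 3 were 1.5-fold higher, against 3.00% and 7.27% of all genes, and none was lower, against 3.48% and 10%. The largest after both siRNAs were Nasp, a histone chaperone gene, at 0.83, Chaf1b, a subunit of chromatin assembly factor 1, at 0.78, Hells at 0.67 and Chaf1a at 0.55. Other nucleotide synthesis genes had medians of 0.31 and 0.43 over 23 genes, with 0 and 8 of them 1.5-fold higher, against 3.00% and 7.27% of all genes. Here Ppat and Gart, of purine synthesis, were at 0.92 and 0.80 after both siRNAs, and Nme1, a nucleoside diphosphate kinase gene, and Dctd, which deaminates dCMP, both at 0.82.

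Of the 13 E2F and pocket protein genes, 6 had intervals above the control after Ptbp1 siRNA and 4 below it. After both siRNAs 7 lay above and 4 below. Over all genes tested, intervals lay above the control for 2801 and below it for 3497 of 13285 after Ptbp1 siRNA. After both siRNAs these counts were 3854 and 4292 of 13305. E2f1 was among the genes above the control in either knockdown library. The 4 below it in either library were Rb1, Rbl1, Rbl2 and E2f7, so they were not pocket protein genes alone. E2f1, an activator of S phase genes (chromosome 2, 154385376 to 154395589), gave 1885, 3650 and 3347 reads, 1.74-fold (1.65 to 1.84) and 1.9-fold higher (1.79 to 2.01). Rbl1, which encodes the pocket protein p107 (chromosome 2, 156971638 to 157030256), gave 733, 695 and 368 reads, 1.17-fold (1.06 to 1.3) and 1.86-fold lower (1.64 to 2.12). Rb1, the retinoblastoma gene, gave 671, 631 and 414 reads, 1.18-fold (1.06 to 1.32) and 1.52-fold lower (1.34 to 1.72). On the log2(CPM + 1) scale Rb1 was at -0.58, just short of the 1.5-fold size before rounding, while Rbl1 passed it. Rbl2, the third pocket protein gene, named after its values were seen, was 1.23-fold lower in either library (1.11 to 1.36 and 1.1 to 1.37). E2f7, also named after its values were seen, was at -0.15 and -0.44 on the log2 scale. E2f6, a repressor, was 1.39-fold (1.23 to 1.57) and 1.76-fold higher (1.57 to 1.99). The list's medians of 0.16 and 0.18 over 13 genes stand for members that went both ways, from -0.87 to 0.92 after both siRNAs.

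Cyclins, kinases and inhibitors of G1 and S had medians of 0.15 over 16 and 0.03 over 15 genes tested. After both siRNAs Ccnd1, the cyclin D1 gene, was 1.52-fold higher (1.46 to 1.58) and Ccne2, a cyclin E gene, was at 0.53, while the inhibitor genes Cdkn1b and Cdkn2a were at -0.49 and -0.45. Mitosis and cytokinesis genes, which follow replication in the cycle, had medians of 0.11 and 0.03 over 33 genes. After Ptbp1 siRNA 25 of the 33 were above 0 (75.8%, against 48.4% of all genes tested), and after both siRNAs 18 (54.5%, against 48.7%). Intervals lay above 1 for 19 and below it for 3 after Ptbp1 siRNA, and for 14 and 10 after both. None of the 33 was 1.5-fold higher after Ptbp1 siRNA, against 3.00% of all genes. After both siRNAs 1 was higher, against 7.27%, and 1 lower, against 10%. Those were Ccnb1, the cyclin B1 gene, at 0.77, and Ect2, a cytokinesis exchange factor gene, which gave 1924, 2433 and 1011 reads, 1.78-fold lower (1.65 to 1.92). Kif2c and Kif20a, of mitotic kinesins, were at -0.56 and 0.47. Of 28 mitosis genes with a promoter window 3.57% held the E2F word. Whether the replication and mitosis genes differ in response could not be tested with 1 library per group.

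**Figure D5:**
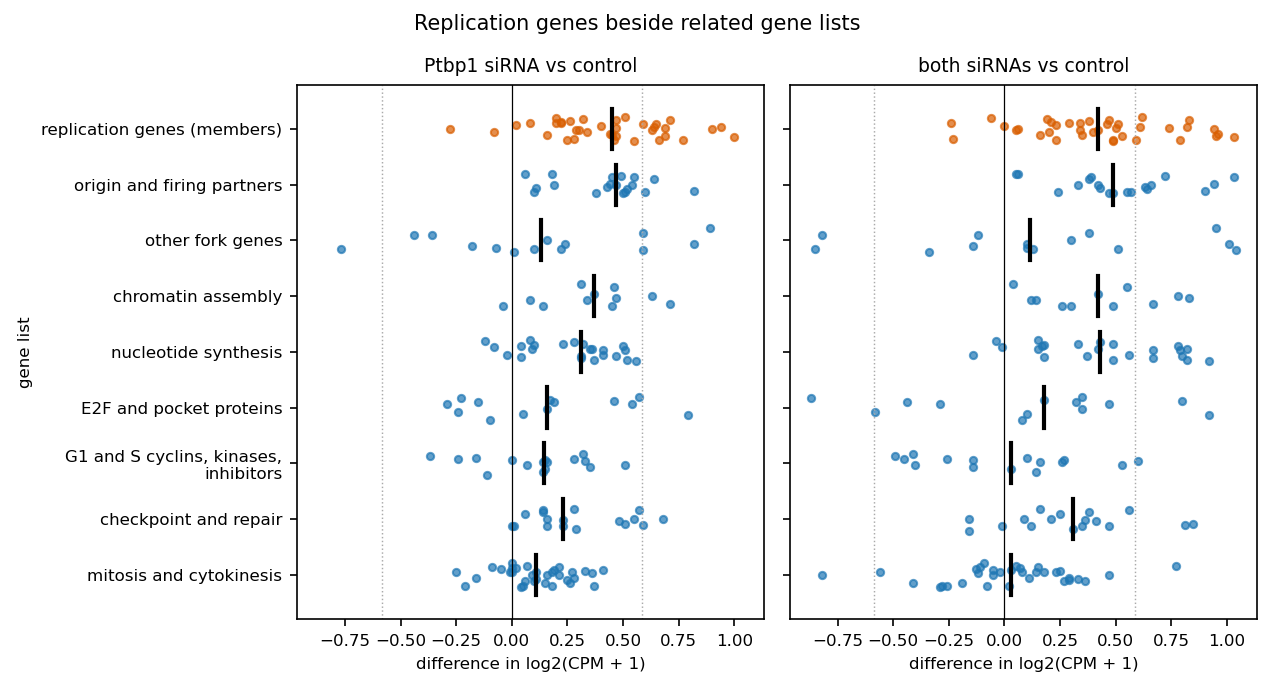
Difference in log2(CPM + 1) from the control after Ptbp1 siRNA (left) and after both siRNAs (right) for the 37 replication genes (orange) and 8 related lists (blue); a point is a gene, black bars are medians and dotted lines mark 1.5-fold. The origin and firing partners have medians of 0.47 and 0.49, beside 0.45 and 0.42 for the members, and the mitosis genes 0.11 and 0.03.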

How the data were processed

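RNA of 3 CAD cell libraries, 1 per siRNA group by the transfection label, was measured as paired 36-base reads. Per the labels' protocols, fragments of 350 bp within 50 bp were amplified over 15 PCR cycles from random-primed cDNA, and no step that marks strand is described. The deposited table gives whole-number read values per gene cluster and RPKM on mm9, as the submitters' processing notes and the file headers name the build. Aligner, counting tool and origin of the gene clusters are not given in the sources used here. Read values as the authors deposited them are net: 38 of 27389 clusters hold a value below 0, the lowest -65. These and 127 clusters without length were left out, and the other read values were treated as counts, which makes intervals approximate.

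Clusters were named by alias and GENCODE position on the same build (16074) or by position alone (5022, overlap of at least 0.5 of the union), otherwise by first alias. The row with the highest mean was kept per symbol. Library sizes (15770240, 16687534 and 14073991 reads) were scaled by trimmed means of M values (trimming 30% by M, 5% by A; factors 0.968, 1.02 and 1.01) with numpy 2.4.6, and 1 CPM stood for 15.3, 17 and 14.3 reads. Differences are on the log2(CPM + 1) scale. Intervals are exact (Clopper-Pearson, conditional binomial; scipy 1.17.1). Mitochondrial genes held 3.73%, 3.95% and 4.68% of reads. The calling code was tested on simulated data. Exon sharing came from GENCODE, and copies from aligning each transcript to the genome (at least 95% identity over 200 bases). Members and lists were chosen with earlier results of these data known. Of genes that are not members, the text names up to 4 per list, by size of the difference after both siRNAs. Rbl2 and E2f7 are apart from this rule and were added after their values were seen. In the list of checkpoint and repair genes, 1 gene that this rule names is not reported here. Of 219 listed symbols 216 were found. Labels do not say that libraries came from separate cultures. Alternatives were 10 planned settings and 2 chosen after seeing the data.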

Additional observations from a re-analysis of the deposited data

How the results depend on the processing

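The median of the members lay between 0.43 and 0.52 after Ptbp1 siRNA, 0.41 and 0.49 after both siRNAs, and 0.01 and 0.03 between the knockdown libraries under all 12 alternatives, and the counts at 1.5-fold stayed within 1.5 times their main values. The count at 2-fold, 1 in each pair with the control, did not. After Ptbp1 siRNA it was 0 with a pseudocount of 5 CPM, 2 with library-total scaling and 0 with the deposited RPKM. After both siRNAs it was 0, 4 and 2 under these settings, and 2 with quantile scaling. Counts over all genes at 1.5-fold moved more. With a pseudocount of 5 CPM they were 104 higher and 242 lower after Ptbp1 siRNA (399 and 462 in the report), 445 and 823 after both siRNAs (967 and 1336), and 59 and 147 between the knockdown libraries (246 and 479). With the deposited RPKM they were 211 and 212, 708 and 742, and 91 and 195, and with a filter at 5 CPM, which tests fewer genes, 231 and 378, 705 and 1132, and 135 and 321. The alternatives chosen after seeing the data took Rpa1 from the Polr1a row, which gave 13 and 12 members at 1.5-fold, or kept only the 30 members without over 10% of exon bases shared or a near-identical copy. No paired analysis was possible because each group had 1 library, and for the same reason no library could be left out. Counting error limits differences between the knockdown libraries to those beyond the intervals given.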

Other observations

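Genes of the replication checkpoint and of repair at stalled forks, 17 in all, had medians of 0.23 after Ptbp1 siRNA and 0.31 after both siRNAs. All 17 were at or above the control after Ptbp1 siRNA and 14 were above it after both, against 48.4% and 48.7% of all genes tested. In each pair 12 had intervals above 1 and 5 had intervals that held 1. In each pair 2 were at least 1.5-fold higher, against 3.00% and 7.27% of all genes tested, and none lower, against 3.48% and 10%. Brca2, which acts in repair by homologous recombination, was 1.62-fold (1.45 to 1.81) and 1.82-fold higher (1.63 to 2.04). Fanci, of the Fanconi anemia pathway, was at 0.55 and 0.56, and Chek1, a checkpoint kinase gene, at 0.59 and 0.47. Of the 13 genes with a promoter window 23.1% held the E2F word.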
